A study of Homo sapiens with 6 samples.

Results

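Tubulin genes encode the alpha and beta chains that pair into the building block of microtubules. The 10 tubulin genes described here, 4 alpha (TUBA1A, TUBA1B, TUBA1C and TUBA4A) and 6 beta (TUBB, TUBB2A, TUBB2B, TUBB3, TUBB4B and TUBB6), were taken by symbol from the deposited gene table, where each symbol was found in exactly 1 gene entry. They are 10 of 74852 genes listed, and all 10 were among the 18717 genes that averaged 10 or more normalized counts (reads divided by a size factor of the library) and were tested. RNA of MDA-MB-231 cells, a human triple-negative breast cancer (TNBC) line, was sequenced after 2 rounds of transfection with either non-targeting control siRNAs (si-CTRL) or siRNAs against the mitotic kinase NEK2 (si-NEK2), with 3 libraries per group. The sample records place the harvest 24 h after the second round, whereas the methods of the study give another time. The records give 1 protocol for both groups, but those of si-CTRL point to further records and those of si-NEK2 do not, and nothing says whether the groups shared a batch. The comparison rests on 1 cell line and 1 pool of siRNAs per group. The samples are described as triplicates without saying that they were separate cultures, so that p-values measure only the spread between these libraries.

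Microtubules grow and shrink by adding and losing alpha/beta dimers, and they build the spindle that separates chromosomes in mitosis. Vertebrate alpha- and beta-tubulins come in several isotypes, which are alike over most of their length and differ mainly in an acidic tail at the carboxyl end, where most post-translational modifications are placed. Cells also adjust tubulin mRNA to the amount of free dimer: when free tubulin is in excess, TTC5 binds the first residues of the nascent tubulin chain on the ribosome and the mRNA is degraded. TUBB3 is best known from neurons, whereas TUBA1B, TUBA1C, TUBB and TUBB4B are widely expressed.

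The start, whose residues the autoregulation pathway reads, and the tail, where the isotypes mainly differ, are shown first. Sequences are those of GENCODE release 29 on GRCh38, 5′ to 3′ along the coding strand. The first 4 codons, spliced where an intron follows the start codon, had the same bases in 3 of the 4 alpha genes and varied among the beta genes. These differences lie between codons for the same residue. All alpha genes thus encode the same first 4 residues, and so do all beta genes.
TUBA1A, TUBA1B and TUBA1C: atgcgtgagtgc
TUBA4A: atgcgtgaatgc
TUBB and TUBB4B: atgagggaaatc
TUBB3 and TUBB6: atgagggagatc
TUBB2A: atgcgcgagatc
TUBB2B: atgcgtgagatc

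The last 75 coding bases of the beta genes, stop codon included, encode their tail, and capitals mark the in-frame codons GAA and GAG, which specify glutamate, the residue to which polyglutamate chains are added.
TUBB (chr6:30724323-30724397, plus strand): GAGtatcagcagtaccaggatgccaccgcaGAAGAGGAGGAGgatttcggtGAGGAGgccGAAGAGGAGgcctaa
TUBB2A (chr6:3153863-3153937, minus strand): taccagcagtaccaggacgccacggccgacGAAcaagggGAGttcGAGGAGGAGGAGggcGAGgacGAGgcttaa
TUBB2B (chr6:3224751-3224825, minus strand): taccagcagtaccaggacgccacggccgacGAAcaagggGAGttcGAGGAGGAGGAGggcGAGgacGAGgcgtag
TUBB3 (chr16:89935730-89935804, plus strand): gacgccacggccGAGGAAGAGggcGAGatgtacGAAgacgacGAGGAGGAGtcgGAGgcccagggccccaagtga
TUBB4B (chr9:137243482-137243556, plus strand): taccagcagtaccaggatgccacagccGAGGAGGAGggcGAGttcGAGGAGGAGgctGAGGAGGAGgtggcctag
TUBB6 (chr18:12326056-12326130, plus strand): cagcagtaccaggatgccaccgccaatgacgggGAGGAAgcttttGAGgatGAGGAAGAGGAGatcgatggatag

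Of the 24 codons before the stop, TUBB and TUBB4B had 10 glutamate codons each, TUBB3 had 9, TUBB2A and TUBB2B had 8 each and TUBB6 had the fewest, 7. TUBB2A and TUBB2B differed there only in the last of the 24 codons, gct and gcg, and in the stop codon. The codons gct and gcg both specify alanine, so that these tails do not tell TUBB2A and TUBB2B apart as proteins. Over the whole coding sequence the alpha genes were identical at 84.4% to 97.2% of aligned bases, the beta genes at 80.9% to 98.1%, and an alpha and a beta gene at 52.2% to 54.3%.

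This likeness limits how the reads can be assigned. Of all 100-base windows of the TUBB2A transcript, the read length of the study, 54.4% are also present in TUBB2B, and 42.4% of the TUBB2B windows are present in TUBB2A. For TUBA1B 32.1% of windows, for TUBA1A 26.6% and for TUBA1C 11.5% are shared with another of the 10 genes. TUBB3 shares 5.15%, TUBB4B 2.86%, and TUBA4A, TUBB and TUBB6 share none with the other members. Windows are also shared with genes outside the 10 that overlap a member. These are 89.0% of TUBB3 windows with AC092143.1, 65.4% of TUBA1B with AC011603.2, 25.6% of TUBA4A with STK16, 18.6% of TUBA1C with AC125611.3 and 17.1% of TUBB with AL662797.1. Further windows are shared with genes outside the 10 that lie elsewhere. TUBA1A shares 13.3% and TUBA1C 8.3% with AC011603.2, and TUBB2A shares 9.36% and TUBB2B 9.63% with TUBB2BP1. TUBA1B shares 6.48% with TUBAP2 and TUBB 5.1% with TUBBP1. TUBB6 alone shares no window with any gene. How reads with several matches and the strand of reads were treated is not given in the sources used here. The windows take single reads, but the study calls its reads single-end in its methods and paired-end in its results. The values of TUBA1A, TUBA1B, TUBA1C, TUBB2A and TUBB2B are thus uncertain to the extent that reads passed between them. By these windows, the values of every member but TUBB6 are also uncertain to the extent that reads were shared with genes outside the 10.

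The silenced gene was examined first. NEK2 had 3702, 3323 and 3290 normalized counts in the si-CTRL libraries and 284, 362.4 and 388 in the si-NEK2 libraries, which left 10% of the si-CTRL mean (log2 fold change -3.32, SE 0.12, adjusted p = 1.86e-06). Recovered reads were between 52625492 and 87454509 per library. The si-CTRL replicate 1 was the shallowest and stood apart from the other 2 si-CTRL libraries on the second principal component, which held 16.2% of the variance against 61.7% on the first, where the groups separated. Sums of normalized counts were about 65012700 to 65933400 in si-CTRL and 71439000 to 71995300 in si-NEK2, so that the size factors and the library totals set different zero points for a fold change. Scaling to equal totals moved the median log2 fold change of all genes from 0.01 to -0.11. Of 5 mesenchymal markers VIM was highest, with 134282 to 173162 normalized counts, and CD44 and ZEB1 passed both thresholds of the study with lower values in si-NEK2 (log2 fold changes -0.76 and -0.82). Of 6 luminal and HER2 markers, ESR1, PGR and CDH1 were too low to be tested and GATA3 had an adjusted p of 0.105. FOXA1 passed both thresholds with higher values in si-NEK2 (826 ± 34.7 and 1851 ± 143 normalized counts, SD, n = 3; log2 fold change 1.16, adjusted p = 2.69e-05), and ERBB2, in 1 entry with MIR4728, was higher by 0.53 (adjusted p = 0.00744). The blood, vessel and liver markers PTPRC, PECAM1, HBB and ALB summed to at most 35.2 normalized counts in a library.

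None of the 10 tubulin genes reached the thresholds of the study, a p-value of at most 0.05 with a fold change of at least 1.5, which 22.5% of all genes tested did. The p-value alone was at most 0.05 for 7 of the 10, and edgeR and DESeq2 on the recovered reads also put 0 of the 10 past both thresholds. At an adjusted p of at most 0.05 with no limit on the fold change, a rule added after the values had been seen, 6 tubulin genes were higher in si-NEK2 (TUBA1A, TUBA1C, TUBB, TUBB2A, TUBB3 and TUBB4B) and TUBB6 was lower. These 7 of 10 stand beside 43.1% of all genes tested, the 6 higher beside 21.8% and the 1 lower beside 21.3%. The same 7 genes had no overlap between the groups, as did 55.0% of all genes tested, 28.2% with higher and 26.9% with lower values in si-NEK2. The median log2 fold change was 0.26 over the 10 genes and 0.01 over all genes tested. Differences of this size were also seen in other abundant genes. GAPDH had a log2 fold change of 0.24 (adjusted p = 0.0193) and ACTB one of 0.37 (adjusted p = 0.0105), both without overlap. VIM went the other way (-0.18, adjusted p = 0.101). In these bulk libraries, more RNA per cell and more cells that express a gene cannot be told apart.

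**Figure D1:**
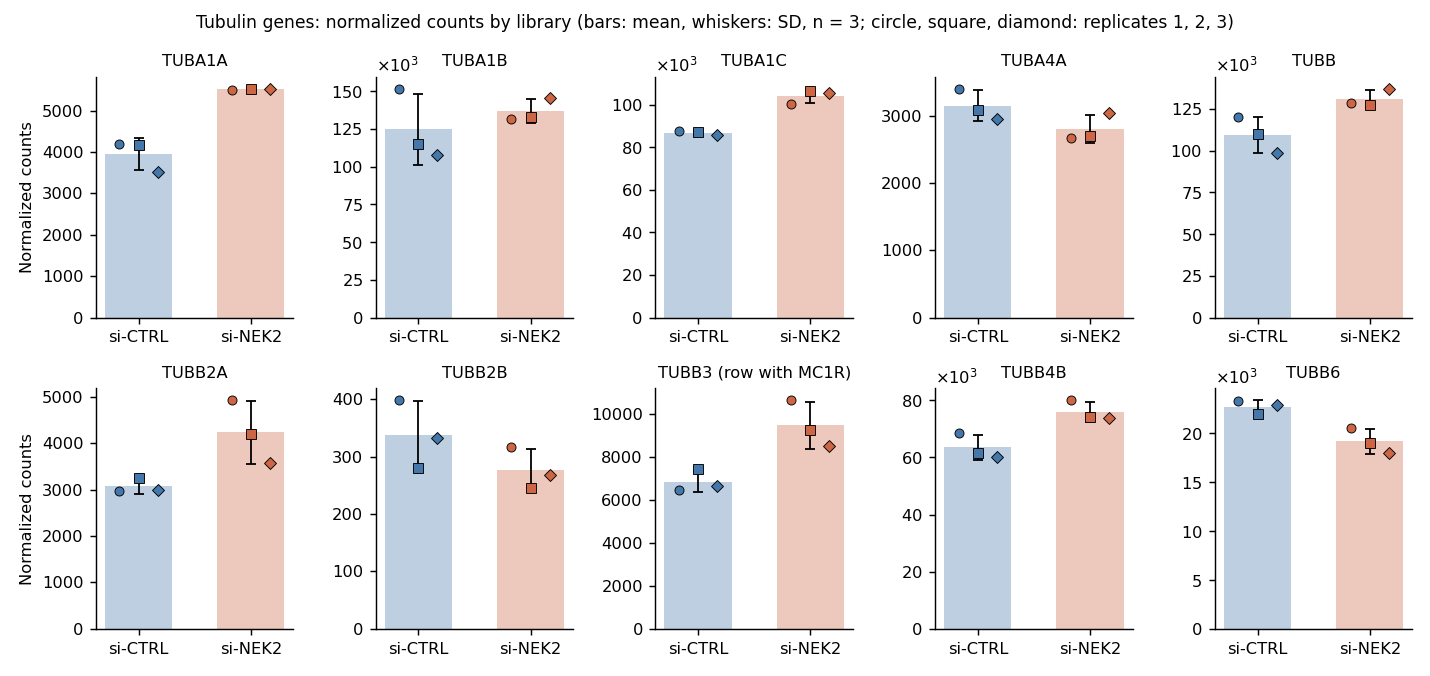
Normalized counts (linear axes from 0, 1 panel per gene) of the 10 tubulin genes in the 3 si-CTRL and 3 si-NEK2 libraries, with symbols for replicates 1, 2 and 3, bars for the mean and whiskers for the SD. The 3 si-NEK2 values of TUBA1A lie between 5503 and 5531, above all si-CTRL values, and the TUBB6 values of si-NEK2 lie below all si-CTRL values.

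TUBA1A, an alpha isotype abundant in developing neurons, showed the largest relative difference of the 10 genes. It had 4184, 4157 and 3515 normalized counts in si-CTRL and 5503, 5531 and 5511 in si-NEK2. The si-NEK2 libraries were nearly alike and all were above the si-CTRL libraries. The fold change was 1.40 (95% interval 1.23 to 1.59; log2 fold change 0.49, SE 0.08, adjusted p = 0.00147). Gene entries that overlap the hg19 position of TUBA1A (chr12:49578579-49583107) hold together 41.7% as many normalized counts as TUBA1A itself.

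TUBA1B, the most abundant of the 10 genes, had 151663, 114692 and 107909 normalized counts in si-CTRL and 131483, 133048 and 145614 in si-NEK2. The si-CTRL replicate 1 was above every si-NEK2 library and the other si-CTRL libraries were below them, so that the groups overlapped. The log2 fold change was 0.15 (SE 0.12, adjusted p = 0.364), and the 95% interval of the fold change ran from 0.914 to 1.34. Without si-CTRL replicate 1 it was 0.30 with an adjusted p of 0.00206. This call thus rests on whether 1 library is included.

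TUBA1C, the second most abundant alpha isotype, had 87783, 86966 and 85772 normalized counts in si-CTRL and 100275, 106603 and 105634 in si-NEK2. The libraries of each group lay close together and the groups did not overlap. The fold change was 1.20 (95% interval 1.09 to 1.32; log2 fold change 0.26, SE 0.06, adjusted p = 0.00749). With scaling to equal totals the log2 fold change was 0.13 (adjusted p = 0.105) and with quantile normalization 0.05 (adjusted p = 0.585), so that the call depends on the scaling.

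TUBA4A, the least abundant of the alpha genes, had 3413, 3092 and 2961 normalized counts in si-CTRL and 2680, 2710 and 3045 in si-NEK2. The si-NEK2 replicate 3 lay within the range of si-CTRL. The log2 fold change was -0.17 (SE 0.08, adjusted p = 0.14), and the fold change lay between 0.782 and 1.02. Equal totals, quantile and upper quartile scaling brought its adjusted p to 0.0207, 0.0429 and 0.0471. The neighbouring STK16 gene overlaps TUBA4A at chr2:220114433-220119330 in hg19, and the overlapping entries sum to 27.6% of the TUBA4A mean.

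Among the beta genes TUBB, the main isotype of dividing cells, had 120058, 109752 and 98662 normalized counts in si-CTRL and 128779, 127552 and 137137 in si-NEK2. All si-NEK2 libraries were above all si-CTRL libraries, by a margin smaller than the spread within si-CTRL. The fold change was 1.20 (95% interval 1.05 to 1.37; log2 fold change 0.26, SE 0.08, adjusted p = 0.03). The adjusted p was above 0.05 under 11 of 17 alternative settings, with 0.227 at equal totals and 0.589 after quantile normalization. The entry of TUBB spans 271557 bases in hg19 (chr6:30687978-30959534) and overlaps 20 other entries, among them IER3, FLOT1 and DDR1, which sum to 18% of the TUBB mean.

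TUBB4B, also broadly expressed and found in cilia, had 68551, 61655 and 60082 normalized counts in si-CTRL and 80060, 74014 and 73734 in si-NEK2, again without overlap. The fold change was 1.20 (95% interval 1.07 to 1.34; log2 fold change 0.26, SE 0.07, adjusted p = 0.0187). At equal totals the log2 fold change was 0.13 (adjusted p = 0.178) and after quantile normalization 0.04 (adjusted p = 0.717).

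TUBB2A, an isotype that is enriched in brain, had 2965, 3256 and 2984 normalized counts in si-CTRL and 4933, 4206 and 3578 in si-NEK2. The si-NEK2 libraries were spread more widely than the si-CTRL libraries but did not reach them. This gave a fold change of 1.37 (95% interval 1.15 to 1.64; log2 fold change 0.46, SE 0.11, adjusted p = 0.0105). TUBB2B, its near copy on the same chromosome, had 399, 280 and 332 normalized counts in si-CTRL and 318, 246 and 268 in si-NEK2. These groups overlapped, and the log2 fold change was -0.27 (SE 0.16, adjusted p = 0.19; fold change between 0.647 and 1.06). Given the windows in common, an exchange of reads between the pair cannot be told apart from a change of either gene.

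TUBB3, known as the neuronal beta isotype, is listed in 1 entry with MC1R, a melanocortin receptor gene, and the reads of both cannot be separated. The entry had 6475, 7407 and 6653 normalized counts in si-CTRL and 10638, 9240 and 8490 in si-NEK2, with no overlap. The entry differed by a fold change of 1.38 (95% interval 1.19 to 1.60; log2 fold change 0.46, SE 0.09, adjusted p = 0.00423). The neuronal genes DCX and STMN2 had 0 reads in every library, which allows up to 3 reads each. Of 12 neuronal markers listed 7 were tested, of which SYP, CHGB and SCG2 passed both thresholds with higher values in si-NEK2 (log2 fold changes 3.06, 1.34 and 2.62), as did 8.23% of all genes tested. The summed level of the list was between 16316 and 18469 normalized counts in si-CTRL and between 31886 and 33285 in si-NEK2. Most of this difference came from SCG2 alone, with means of 2562 and 15768. The other 4 tested markers, MAP2, INA, SNAP25 and ENO2, had an adjusted p above 0.05. The part of the list in the TUBB3 difference was not tested.

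TUBB6, a beta isotype known to destabilize microtubules when overexpressed, was the member with lower values in si-NEK2 at an adjusted p of at most 0.05. It had 23372, 22038 and 22874 normalized counts in si-CTRL and 20544, 19054 and 17982 in si-NEK2. All si-NEK2 libraries were below all si-CTRL libraries. This gave a fold change of 0.842 (95% interval 0.757 to 0.937; log2 fold change -0.25, SE 0.07, adjusted p = 0.0172). Its log2 fold change was lower still with scaling to equal totals (-0.38) and with quantile normalization (-0.39). AFG3L2 overlaps the hg19 position of TUBB6 (chr18:12307668-12329822) with 35.8% as many normalized counts.

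**Figure D2:**
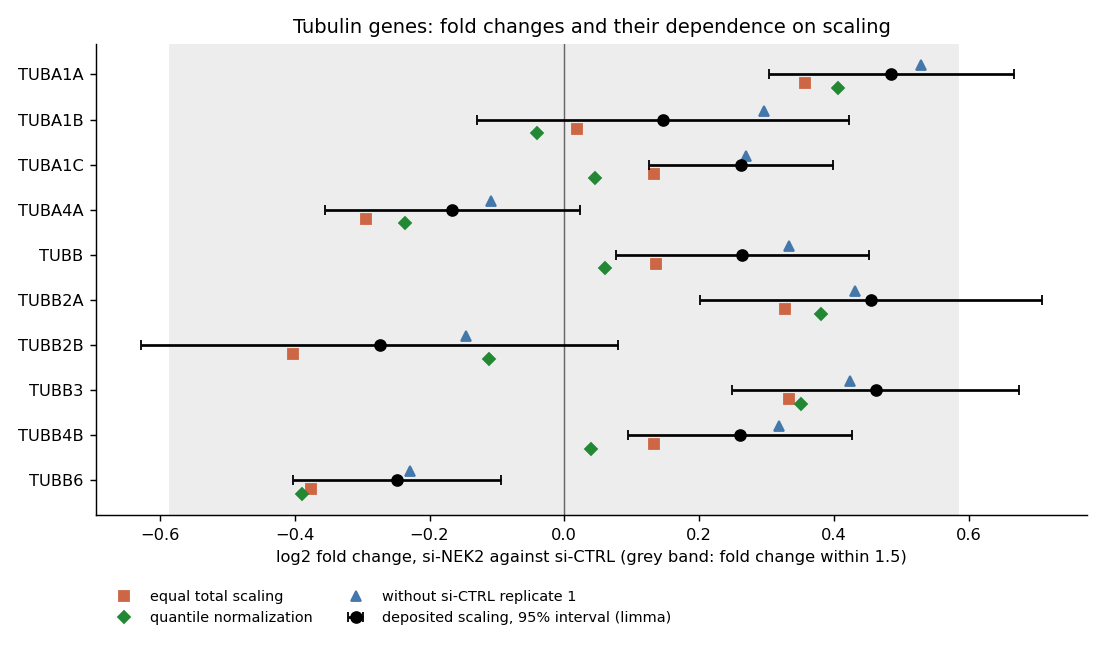
Log2 fold change of si-NEK2 against si-CTRL (horizontal axis) for the 10 tubulin genes, with the 95% interval for the deposited scaling and points for equal total scaling, quantile normalization and the fit without si-CTRL replicate 1; the grey band holds fold changes within 1.5. The points of TUBA1A, TUBB2A and TUBB3 lie at 0.33 or above and those of TUBB6 at -0.23 or below, while TUBA1B, TUBA1C, TUBB and TUBB4B lie at 0.02, 0.13, 0.14 and 0.13 at equal totals.

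The 95% interval lay entirely within a 1.5-fold change in either direction for 6 members, TUBA1B, TUBA1C, TUBA4A, TUBB, TUBB4B and TUBB6. TUBA1A, TUBB2A and TUBB3 kept an adjusted p of at most 0.05 and higher values in si-NEK2 under all 17 alternative fits. These 3 genes had means between 3068 and 6845 normalized counts in si-CTRL, against 63429 to 124755 for the 4 most abundant genes.

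Levels of different genes were compared per kilobase of exon. In si-CTRL, TUBA1B had 76678 normalized counts per kilobase, followed by TUBB4B with 38747, TUBB with 32596 and TUBA1C with 25084. TUBB6 had 7305, TUBB3 had 2077, TUBB2A had 1924, TUBA1A had 1531, TUBA4A had 1179 and TUBB2B had 167. The ranges of neighbours in this order did not overlap, except for TUBB3 (1965 to 2248) and TUBB2A (1859 to 2042). In si-NEK2, TUBA1B was again highest with 84029 and TUBB2B lowest with 137, and the order of the 10 genes was the same.

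The isotypes of each chain can also be read as parts of 1 pool. The reads of the 10 genes made up 0.594% to 0.713% of all assigned reads in si-CTRL and 0.67% to 0.701% in si-NEK2, so that the share of the library overlapped between the groups. The alpha genes together had a mean of 218703 normalized counts in si-CTRL and 249212 in si-NEK2, a ratio of 1.14 that became 1.22 without si-CTRL replicate 1. The beta genes together had 205932 and 240257, a ratio of 1.17 that became 1.21 without that library.

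Within the beta pool TUBB6 showed the largest shift. It made up 10.5%, 10.8% and 11.9% of the beta reads in si-CTRL and 8.38%, 8.13% and 7.46% in si-NEK2, that is 11.1% ± 0.749 against 7.99% ± 0.477 (SD, n = 3). The groups did not overlap, and the same held with reads per kilobase (8.84% against 6.33%). TUBB made up 53.1% ± 1.41 and 54.6% ± 2.18, and TUBB4B made up 30.8% ± 0.603 and 31.6% ± 1.04, both with overlap. TUBB3 (2.92% to 3.62% and 3.52% to 4.34%) and TUBB2A (1.34% to 1.59% and 1.48% to 2.01%) overlapped as well, whereas TUBB2B (means of 0.163% and 0.115%) did not.

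In the alpha pool TUBA1B and TUBA1C together held most of the reads. TUBA1B made up 61.4%, 54.9% and 53.9% in si-CTRL and 54.8%, 53.7% and 56% in si-NEK2. The first si-CTRL library stood apart, and the difference of -1.90 percentage points turned to 0.433 without it. TUBA1A held 1.81% ± 0.156 in si-CTRL and 2.22% ± 0.0872 in si-NEK2, and TUBA4A held 1.45% ± 0.0566 and 1.13% ± 0.0404, both without overlap. Shares of 1 pool are not independent of each other.

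**Figure D3:**
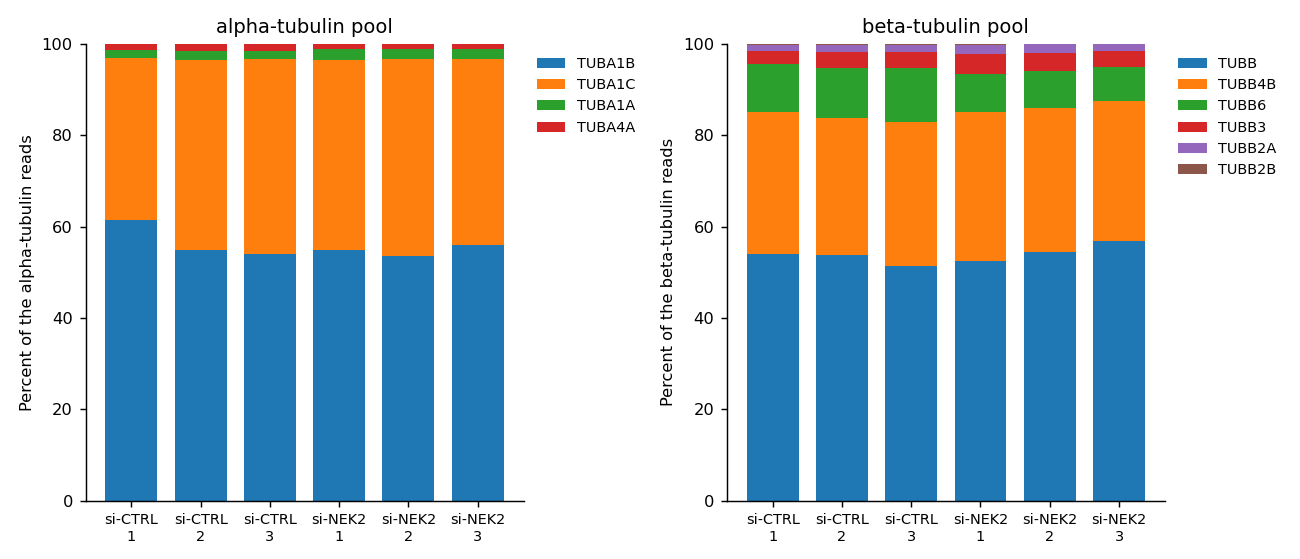
Share of each gene in the reads of the 4 alpha-tubulin genes (left) and the 6 beta-tubulin genes (right), in percent, as stacked bars for each of the 6 libraries. TUBB6 takes between 7.46% and 8.38% of the beta reads in si-NEK2 and between 10.5% and 11.9% in si-CTRL, and TUBA1B takes 61.4% of the alpha reads in si-CTRL replicate 1.

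Ratios of 2 genes within a library do not depend on a scaling that divides all genes of the library by 1 factor. Quantile normalization is not such a scaling and can change them. The log2 ratio of TUBB6 to TUBB was -2.26 in si-CTRL and -2.77 in si-NEK2, a difference of -0.51, and the difference was -0.51 against TUBB4B, -0.70 against TUBB2A and -0.71 against TUBB3. The ratio of TUBA4A to TUBA1A differed by -0.65, that of TUBA4A to TUBA1C by -0.43 and that of TUBA1B to TUBA1A by -0.34. For these 7 of the 8 pairs compared the groups did not overlap, with p = 0.1 in a two-sided exact permutation test, which is the smallest p that 3 against 3 libraries allow and remains 0.1 or more after adjustment over the 8 pairs. The ratio of TUBA1B to TUBA1C differed by -0.12 with overlap (exact permutation p = 0.6). The 8 pairs were picked from 21 pairs within a chain. Each set a member with a lower log2 fold change over a member with a higher one. The lack of overlap thus follows in part from this choice and is no separate support. TUBB6 over TUBB2B, both with negative log2 fold changes (-0.25 and -0.27), was not among the pairs.

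The promoters of TUBA1A, TUBB2A and TUBB6, which had higher values in si-NEK2 for the former 2 and lower values for the last, are shown for the letters they hold. Each covers 300 bases around an annotated start in RefSeq on GRCh38.p14, and capitals mark CCAAT or its reverse complement ATTGG and TATAAA or its reverse complement TTTATA.
TUBA1A (chr12:49189031-49189330, minus strand): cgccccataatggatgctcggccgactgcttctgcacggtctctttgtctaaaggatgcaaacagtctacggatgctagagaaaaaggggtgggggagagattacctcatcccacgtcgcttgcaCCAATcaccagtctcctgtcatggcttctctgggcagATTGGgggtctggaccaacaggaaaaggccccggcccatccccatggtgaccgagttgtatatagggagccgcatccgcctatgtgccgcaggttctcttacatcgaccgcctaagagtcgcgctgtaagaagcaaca
TUBB2A (chr6:3157495-3157794, minus strand): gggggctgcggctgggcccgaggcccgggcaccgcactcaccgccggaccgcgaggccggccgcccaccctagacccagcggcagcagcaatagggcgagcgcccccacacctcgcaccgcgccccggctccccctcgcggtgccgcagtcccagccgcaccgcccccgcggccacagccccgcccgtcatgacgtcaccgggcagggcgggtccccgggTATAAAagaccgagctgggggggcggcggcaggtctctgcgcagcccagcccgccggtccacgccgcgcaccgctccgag
TUBB6 (chr18:12307991-12308290, plus strand): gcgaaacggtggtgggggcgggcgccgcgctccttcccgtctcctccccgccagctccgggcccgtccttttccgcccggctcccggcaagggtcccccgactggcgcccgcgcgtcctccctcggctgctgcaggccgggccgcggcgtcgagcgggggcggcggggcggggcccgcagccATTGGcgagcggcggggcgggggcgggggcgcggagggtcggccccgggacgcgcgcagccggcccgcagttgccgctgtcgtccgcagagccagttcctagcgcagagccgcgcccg

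The 10 genes have 15 such promoters in the reference used, of which 9 hold a CCAAT letter run on either strand, from 7 of the 10 genes. Among the 9, the TUBA1C promoters at chr12:49227676-49227975 and chr12:49227769-49228068 overlap and hold the same run. Over 35116 promoters of the same length 34.6% hold a CCAAT run. TATAAA or TTTATA was present for TUBB2A and for no other member, and 11.5% of all promoters hold it. TUBB4B, with 3 CCAAT runs, had the most of the 10 genes. Of the genes with higher values in si-NEK2 at an adjusted p of at most 0.05, TUBA1A, TUBA1C, TUBB, TUBB3 and TUBB4B hold a CCAAT run. TUBB2A, also with higher values, holds none. TUBB6, with lower values, holds a run in the promoter printed above and none in its other promoter (chr18:12307419-12307718). Likewise TUBB holds none in its promoter at chr6:30721388-30721687 and TUBB3 none in that at chr16:89921675-89921974. TUBB2B, with a log2 fold change of -0.27 and an adjusted p of 0.19, also holds a run. A link between these runs and the changes was not tested.

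The genes whose values followed TUBA1A most closely were found among 7816 genes with a symbol that averaged 1000 or more normalized counts, by the Euclidean distance between centred log2 values over the 6 libraries. The closest 5 were ATP9A (distance 0.0529), ACSF2 (0.0788), CFL1 (0.0878), AKAP13, in 1 entry with MIR7706 (0.0915), and MIR6888 (0.0949). CFL1 encodes the actin-severing protein cofilin, and its entry had a mean of 67951 normalized counts in si-CTRL and 96979 in si-NEK2.

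Genes around tubulin were examined in 8 lists with 118 genes, of which 102 were tested. Both thresholds were passed by 3 genes with higher and 10 with lower values in si-NEK2, or 12.7% of the 102, against 22.5% of all genes tested. At an adjusted p of at most 0.05 there were 32 higher and 22 lower genes, or 52.9%, against 43.1%.

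**Figure D4:**
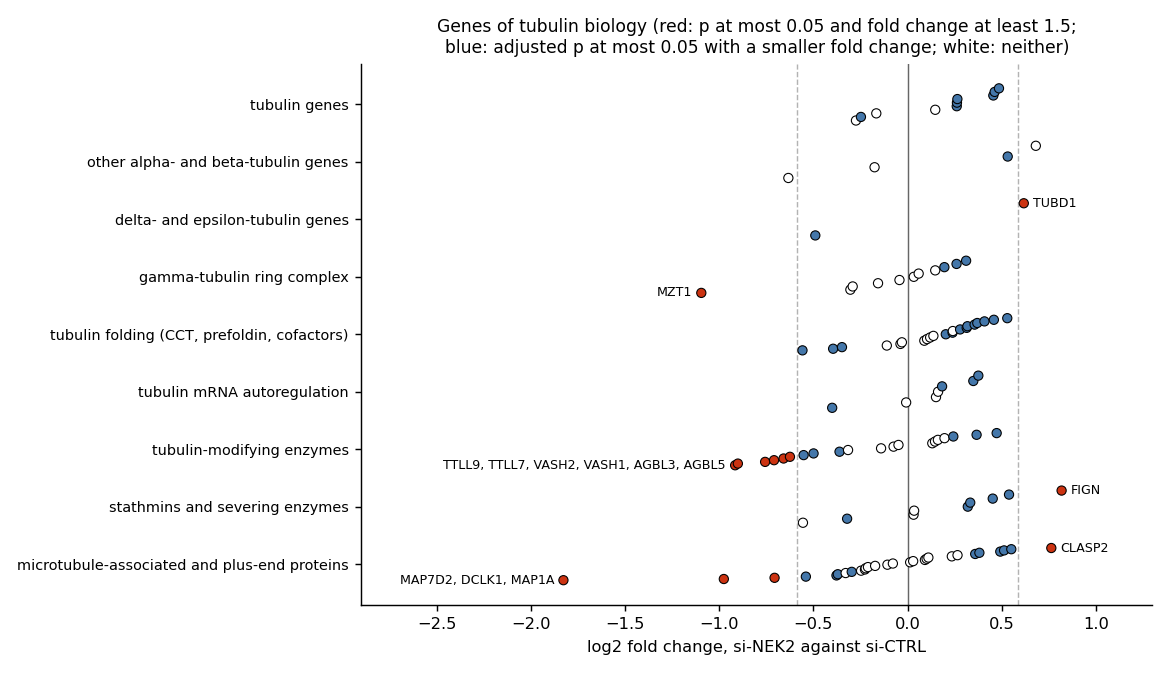
Log2 fold change of si-NEK2 against si-CTRL for each tested gene of the 10 tubulin genes and of the 8 lists around them, 1 point per gene and 1 line per list; dashed lines mark a 1.5-fold change, and genes past both thresholds are in red and named, in order from low to high. The 10 tubulin genes lie between the dashed lines, and the 6 red points of the modifying enzymes all lie to the left.

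Of 9 other alpha- and beta-tubulin genes, 4 averaged 10 or more normalized counts, and TUBA3C and TUBA3E were listed at 0 in every library. TUBB4A, a brain isotype, had 59.3 ± 7.78 normalized counts in si-CTRL and 85.9 ± 8.36 in si-NEK2 (SD, n = 3; log2 fold change 0.53, SE 0.18, adjusted p = 0.0397). TUBA8, TUBAL3 and TUBB8 had overlapping groups, with log2 fold changes of -0.18, -0.63 and 0.68 and adjusted p of 0.63, 0.369 and 0.386. The 9 genes together had at most 181 normalized counts in a library, against 391744 or more for the 10 members.

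TUBD1 and TUBE1, which encode the delta- and epsilon-tubulins of centriole triplet microtubules, moved in opposite directions. TUBD1 had 806, 1032 and 1004 normalized counts in si-CTRL and 1429, 1460 and 1445 in si-NEK2 (log2 fold change 0.62, SE 0.10, adjusted p = 0.00156). TUBE1 had 1779, 1716 and 1742 in si-CTRL and 1223, 1210 and 1296 in si-NEK2 (log2 fold change -0.49, SE 0.07, adjusted p = 0.000722). Neither gene had overlapping groups, and TUBD1 alone passed both thresholds.

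The gamma-tubulin ring complex, from which microtubules are nucleated, had 11 tested genes. At an adjusted p of at most 0.05, TUBGCP3, TUBGCP5 and NEDD1 were higher (log2 fold changes 0.26, 0.31 and 0.20) and MZT1 was lower, 3 and 1 of the 11 beside 21.8% and 21.3% of all genes tested. MZT1, a small subunit of the complex, had 2578, 5172 and 5284 normalized counts in si-CTRL and 2004, 2051 and 1756 in si-NEK2 (log2 fold change -1.10, SE 0.24, adjusted p = 0.00638). The low si-CTRL value was that of replicate 1. TUBG1, the gamma-tubulin itself, had 12505, 9172 and 9082 in si-CTRL and 7938, 8200 and 8509 in si-NEK2 without overlap, yet an adjusted p of 0.0661 (log2 fold change -0.30, SE 0.12). TUBG2 had a log2 fold change of -0.29 (adjusted p = 0.0603).

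Newly made tubulin is folded by the chaperonin CCT with prefoldin and by the cofactors TBCA to TBCE. Of the 21 genes of this list 10 were higher and 3 lower at an adjusted p of at most 0.05, beside 21.8% and 21.3% of all genes tested, and none passed both thresholds, while the p-value alone was at most 0.05 for 14. Of the 8 CCT subunits, TCP1, CCT3, CCT4, CCT6A and CCT8 were higher by 0.24 to 0.37 on the log2 scale, and CCT5 was lower. CCT5 had 120220, 103268 and 105759 normalized counts in si-CTRL and 79110, 83068 and 87816 in si-NEK2 (log2 fold change -0.40, SE 0.08, adjusted p = 0.00382). The list had a median log2 fold change of 0.20.

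In the pathway that degrades tubulin mRNA, TTC5 had 1244, 1604 and 1549 normalized counts in si-CTRL and 1634, 1620 and 1633 in si-NEK2. The si-NEK2 values lay just above the si-CTRL values, and the log2 fold change of 0.16 (SE 0.10) had an adjusted p of 0.235. SCAPER, which links TTC5 to the deadenylase complex CCR4-NOT, was lower (log2 fold change -0.40, SE 0.07, adjusted p = 0.00279). The CCR4-NOT subunits CNOT1, CNOT10 and CNOT11 were higher by 0.35, 0.18 and 0.38 (adjusted p of 0.0121, 0.0381 and 0.0317). These 3 higher genes and 1 lower gene of 7 stand beside 21.8% and 21.3% of all genes tested, and none of the 7 passed both thresholds.

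The enzymes that modify tubulin held the most genes past both thresholds. Of 20 tested, 6 passed with lower values in si-NEK2, as did 14.3% of all genes tested, and none with higher values. At an adjusted p of at most 0.05, 3 were higher (SVBP, HDAC6 and TTLL4) and 8 lower, beside 21.8% and 21.3% of all genes tested. VASH1, which removes the terminal tyrosine of alpha-tubulin, had 875, 906 and 863 normalized counts in si-CTRL and 546, 561 and 510 in si-NEK2 (log2 fold change -0.71, SE 0.08, adjusted p = 0.000255). Its relative VASH2 had 217, 217 and 163 against 135, 97 and 121 (log2 fold change -0.76, SE 0.18, adjusted p = 0.00845). SVBP, the partner that both need, went the other way, from 792 ± 12.8 to 1099 ± 12.7 normalized counts (SD, n = 3; log2 fold change 0.47, adjusted p = 0.00106). TTL, the ligase for the opposite reaction, had a log2 fold change of -0.36 (adjusted p = 0.01).

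TTLL7, which adds glutamate chains to beta-tubulin tails such as those printed above, had 957, 912 and 963 normalized counts in si-CTRL and 444, 542 and 535 in si-NEK2 (log2 fold change -0.90, SE 0.10, adjusted p = 0.000202). All si-NEK2 values were below all si-CTRL values. AGBL5 and AGBL3, of the carboxypeptidases that remove glutamates, had log2 fold changes of -0.62 (adjusted p = 0.00117) and -0.66 (adjusted p = 0.0165). TTLL9 passed both thresholds with 23.7 ± 3.04 and 13 ± 5.72 normalized counts, but its adjusted p was 0.0898.

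Stathmins bind free dimers, and katanin, spastin and fidgetin cut microtubules. STMN1, listed in 1 entry with MIR3917, had 36846, 46548 and 45216 normalized counts in si-CTRL and 60256, 59143 and 55710 in si-NEK2 (log2 fold change 0.45, SE 0.09, adjusted p = 0.00459). FIGN, the fidgetin gene, passed both thresholds with 1656, 1911 and 1816 against 3250, 3178 and 3048 (log2 fold change 0.82, SE 0.08, adjusted p = 8.17e-05). Of the 9 genes tested, 5 were higher and 1 lower at an adjusted p of at most 0.05, beside 21.8% and 21.3% of all genes tested.

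Of 28 tested genes for microtubule-associated and plus-end proteins, 6 were higher and 7 lower at an adjusted p of at most 0.05, shares near the 21.8% and 21.3% of all genes tested. CLASP2, which stabilizes plus ends, passed both thresholds with 2296, 2531 and 2586 normalized counts in si-CTRL and 3998, 4362 and 4212 in si-NEK2 (log2 fold change 0.76, SE 0.07, adjusted p = 9.7e-05). DCLK1, a doublecortin-like kinase, had 204, 224 and 218 against 108, 108 and 110 (log2 fold change -0.98, SE 0.12, adjusted p = 0.000322). MAP1A had a log2 fold change of -0.71 (SE 0.09, adjusted p = 0.000449). MAP7D2 had one of -1.83 (SE 0.55, adjusted p = 0.0265) from 33.6 ± 6.98 and 10.7 ± 7.31 normalized counts (SD, n = 3), few enough that the size of the change is poorly known.

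Of 10 mitotic markers 7 were higher and 1 lower in si-NEK2 at an adjusted p of at most 0.05, beside 21.8% and 21.3% of all genes tested, and BUB1 alone passed both thresholds (log2 fold change 0.66, adjusted p = 8.5e-05). Their summed level was between 144429 and 157787 normalized counts in si-CTRL and between 160418 and 171151 in si-NEK2. Their part in the tubulin differences was not tested.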

How the data were processed

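PolyA RNA of 6 libraries was sequenced by the authors. The methods of the study give single-end reads of 100 bases, whereas its results call the sequencing paired-end. Which holds is not settled here, nor is whether a recovered read is a single read or 1 mate of a pair. The deposited values are a signal, the reads of a gene over the size factor that DESeq2 gave its library, with Human FAST DB annotation and hg19 coordinates and without pooling of replicates. The submitters' processing notes list FastQC, Picard, SAMtools, STAR 2.4.0 and DESeq2, and how strand and multiple matches were handled is not given in the sources used here. Whole reads were recovered for 100% of values (tolerance 0.01 reads), and 1 read was worth 0.818 to 1.25 normalized counts.

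Libraries were grouped by their titles. Genes that averaged 10 or more normalized counts were tested with limma 3.58.1 in R 4.3.3 (lmFit, eBayes with trend) on log2(value + 1), a scale that understates changes of low genes, with Benjamini-Hochberg adjustment over all 18717 genes. The thresholds were those of the study. This test called 4213 genes; edgeR 4.0.16 (quasi-likelihood) on the recovered reads called 4205 and DESeq2 1.42.0 called 4039, with no p-value for 5 genes. The fits were tested on simulated data.

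The tubulin genes and all lists were chosen with earlier results of these data known. The text names the 10 tubulin genes, other tubulin genes with a mean of at least 10, NEK2, list genes past both thresholds (at most 4 per direction by size), TTC5, TUBG1 and STMN1, and the 5 genes closest to the member of mean at least 1000 with the largest log2 fold change; other list genes were named after their values were seen. GAPDH and ACTB were also named after their values were seen. Exon lengths, windows and coding sequences came from GENCODE 29 and promoters from RefSeq, both on GRCh38, with no conversion of coordinates. Coding ends of the alpha genes are not reported here. Windows were compared with all transcripts of that annotation. Tried as alternatives were a pseudocount of 0.1 or 5, an average of 50 or more, no filter at all, 3 other scalings, eBayes without trend, a replicate block, each library left out, edgeR and DESeq2, other thresholds, and reads per kilobase for pool shares.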

Additional observations from a re-analysis of the deposited data

How the results depend on the processing

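The log2 fold changes of TUBA1A, TUBB2A, TUBB3 and NEK2 kept their direction and an adjusted p of at most 0.05 under all 17 alternative fits (highest adjusted p 0.0105, 0.0445, 0.0224 and 0.000423). TUBB lost that threshold under 11 of the 17, TUBB4B under 8, TUBB6 under 3 and TUBA1C under 2. TUBA1B turned to -0.040 with quantile normalization. The number of tubulin genes with higher values at that threshold, 6, was 3 with equal total scaling and 3 with quantile normalization, and 4 to 7 with 1 library left out. The number with lower values, 1, was 0 with eBayes without trend, 2 each with equal total, quantile and upper quartile scaling (TUBA4A added), and 0 to 1 with 1 library left out, the 0 being without si-NEK2 replicate 2 or 3. The cause of these shifts was not tested. The 0 tubulin genes past both thresholds became 7 when only the adjusted p was limited, and stayed 0 elsewhere. The 13 genes of the 8 lists became 2 with a fold change of at least 2. With 1 library left out, the difference in pool share ran from -3.31 to 0.433 percentage points for TUBA1B and from -0.423 to 3.24 for TUBA1C, both turning without si-CTRL replicate 1. Same-numbered libraries deviated from their group means with correlations of -0.09, 0.05 and -0.15, so the numbers were not taken to pair them; with the replicate number as a block 5 tubulin genes were higher and 1 lower, TUBB having an adjusted p of 0.0728. Depth does not limit the 10 genes, which had at least 251 reads in each library.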
